A study of Homo sapiens with 9 samples.

Results

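Heme breakdown and iron handling were followed through 10 genes in SKOV3, a long-established cell line from a human ovarian tumour: HMOX1, HMOX2, BLVRA, BLVRB, FTL, FTH1, TFRC, SLC40A1, FECH and BACH1. Each gene was read from the probe set that the platform annotation pairs with that gene alone, taking the brightest on average if there were several. Of the 10 genes, 9 had such a probe set, out of 14215 genes that had one, and FTH1, the ferritin heavy chain, is not analysed here. The group was chosen with the high HMOX1 values in Ac-GlcNAc-treated cells, and the FTL values beside them, already known. HMOX1 in all 3 comparisons, and FTL in the 2 that involve Ac-GlcNAc arrays, are therefore given as descriptions without a test. The other genes of the group were also chosen with earlier results of these data known. Their test results below are thus no independent test of the pathway.

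Heme oxygenase opens the porphyrin ring of heme and releases iron, carbon monoxide and biliverdin, and biliverdin reductase turns biliverdin into bilirubin. The freed iron is held in ferritin or leaves the cell through ferroportin, while new iron enters mainly with transferrin through the transferrin receptor. HMOX1 is a gene that many cell types switch on under oxidative, electrophilic or heme stress. The heme-binding repressor BACH1 then leaves the gene's control sites and NRF2 takes its place.

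The study compared 3 groups of SKOV3 cells, each of 3 separate culture flasks with 1 array a flask. The first group received 50 µM peracetylated 4-deoxy-GlcNAc (Ac-4-deoxy-GlcNAc), the second 50 µM peracetylated GlcNAc (Ac-GlcNAc), and the third was left untreated; all were grown for 3 days in McCoy's 5A medium with serum. Peracetylation masks the hydroxyl groups of the amino sugar N-acetylglucosamine so that it can enter cells, and the 4-deoxy analog lacks the hydroxyl at carbon 4. Both compounds were used at 1 dose and 1 time in 1 cell line, and the labels name no vehicle, so the untreated flasks are the only control.

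Values are log2 expression levels by RMA, so 1 unit is a factor of 2 in signal. Levels of different genes come from different probes and are not compared with each other. The 9 array medians ran from 6.58 to 6.65. The SD over probe sets was 1.92 on untreated replicate 2, while the other 8 arrays had 2.07 to 2.18, and results are given without that array where it matters. Epithelial and SKOV3 markers were high in every group: 7 of 8 were measured, and ERBB2, the receptor amplified in this line, averaged 12.22 with Ac-4-deoxy-GlcNAc, 12.29 with Ac-GlcNAc and 12.22 in untreated cells. The sum over those 7 ran from 70.0 to 70.7 with Ac-4-deoxy-GlcNAc, from 71.0 to 71.6 with Ac-GlcNAc and from 71.58 to 71.62 in untreated cells. The red cell marker HBB averaged 4.19, 4.07 and 4.35 in the same order of groups, and the leukocyte marker PTPRC 4.08, 4.05 and 4.43, both in class 1 when all probe sets are split by mean level into 4 equal classes, 1 being the dimmest. The sum over the 3 red cell markers measured of 7 ran from 13.8 to 14.0 with Ac-4-deoxy-GlcNAc, 13.5 to 13.8 with Ac-GlcNAc and 13.9 to 15.1 in untreated cells. Of the 5 measured macrophage and leukocyte markers of 7, only CD68, which also marks lysosomes, was bright (8.99, 9.36 and 9.36), and the 5 summed to 26.6 to 27.1, 26.6 to 27.7 and 27.3 to 28.2. In cells given the 4-deoxy analog, KRT7, KRT19 and CD68 fell against untreated (log2 differences -0.46, -0.49 and -0.37). No other measured marker passed the test in that comparison, in which 5.64% of all probe sets were called lower. Of the other epithelial and SKOV3 markers, EPCAM differed by -0.29, KRT8 by -0.09, ERBB2 by 0.00, KRT18 by 0.05 and PAX8 by 0.14. The part of KRT7, KRT19 and CD68 in the results below was not tested. In a bulk culture, fewer expressing cells and less RNA per cell cannot be told apart.

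The sequences shown here match the letters of 2 control elements for which this pathway is known, in genes whose values are given further on. Windows from 250 bases before to 50 bases after a start site, from RefSeq on GRCh38.p14, existed for 8 of the 10 genes; HMOX1 and FTH1 had none. The antioxidant response core TGACNNNGC, the kind of site that NRF2 and BACH1 bind with small MAF partners, was searched on both strands. The loop of an iron-responsive element, to which iron regulatory proteins bind in messenger RNA, was searched in the first 50 transcribed bases as a C, then 5 free bases, then CAGTG and any base. Capitals mark the match, each line reads 5′ to 3′ along the gene's own strand, and the GCLM and FECH cores stand on the opposite strand.
FTL iron-responsive loop: tgtctcttgCTTCAACAGTGTttggac
FECH antioxidant core: cgggagggcGCGAGGTCAgggggctgg
GCLM antioxidant core: acgatttctGCTTAGTCAttgtcttcc
TXNRD1 antioxidant core: cacgggctaTGACTTCGCtgttgtcac
The stretch printed for FTL lies at chr19:48965332-48965358 on the plus strand, and its loop motif begins at base 33 of the transcript. The FECH stretch lies at chr18:57586723-57586749 and the GCLM stretch at chr1:93909447-93909473, both genes being on the minus strand, and the TXNRD1 stretch at chr12:104215671-104215697 on the plus strand. The antioxidant core was found in 1 of the 8 genes with a window and in 13.3% of all 35116 windows, and the iron-responsive loop in 1 of 8 and in 1.67%. The 8 genes had 11 windows together, so a count of genes and a share of windows are unlike measures. Some genes named below also had several windows. Among the other genes named below, 12 had a window and 4 of these held the core: GCLM, TXNRD1 (3 matches, 1 of them printed), SKP1 and NCOA4. It was not in the windows of SLC48A1, ABCC2, ALAS1, SLC11A2, TF, HFE, ISCA2 and ADAMTSL4. A match describes these letters and is not a measured binding site.

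HMOX1, the inducible heme oxygenase, was high in Ac-GlcNAc-treated cells and near the untreated level in cells given the 4-deoxy analog. Its log2 levels were 7.59, 8.04 and 8.03 with Ac-4-deoxy-GlcNAc, 9.75, 9.59 and 9.54 with Ac-GlcNAc, and 7.70, 7.11 and 7.67 in untreated cells. All 3 Ac-GlcNAc arrays stood above all 6 others, and the Ac-4-deoxy-GlcNAc and untreated arrays overlapped. The means were 7.89 ± 0.26, 9.63 ± 0.11 and 7.49 ± 0.33 (SD, n = 3 each). Ac-GlcNAc was thus 4.38-fold above untreated, a log2 difference of 2.13 (SE 0.16, 95% interval 1.79 to 2.47). The 4-deoxy analog was 3.34-fold below Ac-GlcNAc, a log2 difference of -1.74 (interval -2.08 to -1.40). Against untreated cells the analog's difference was 0.39 (interval 0.05 to 0.73), and it depended on single arrays, being 0.20 without untreated replicate 2 and 0.54 without the analog's replicate 1. Leaving out any 1 array kept the other differences between 1.94 and 2.23 for Ac-GlcNAc against untreated, and between -1.82 and -1.59 for the analog against Ac-GlcNAc.

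**Figure D1:**
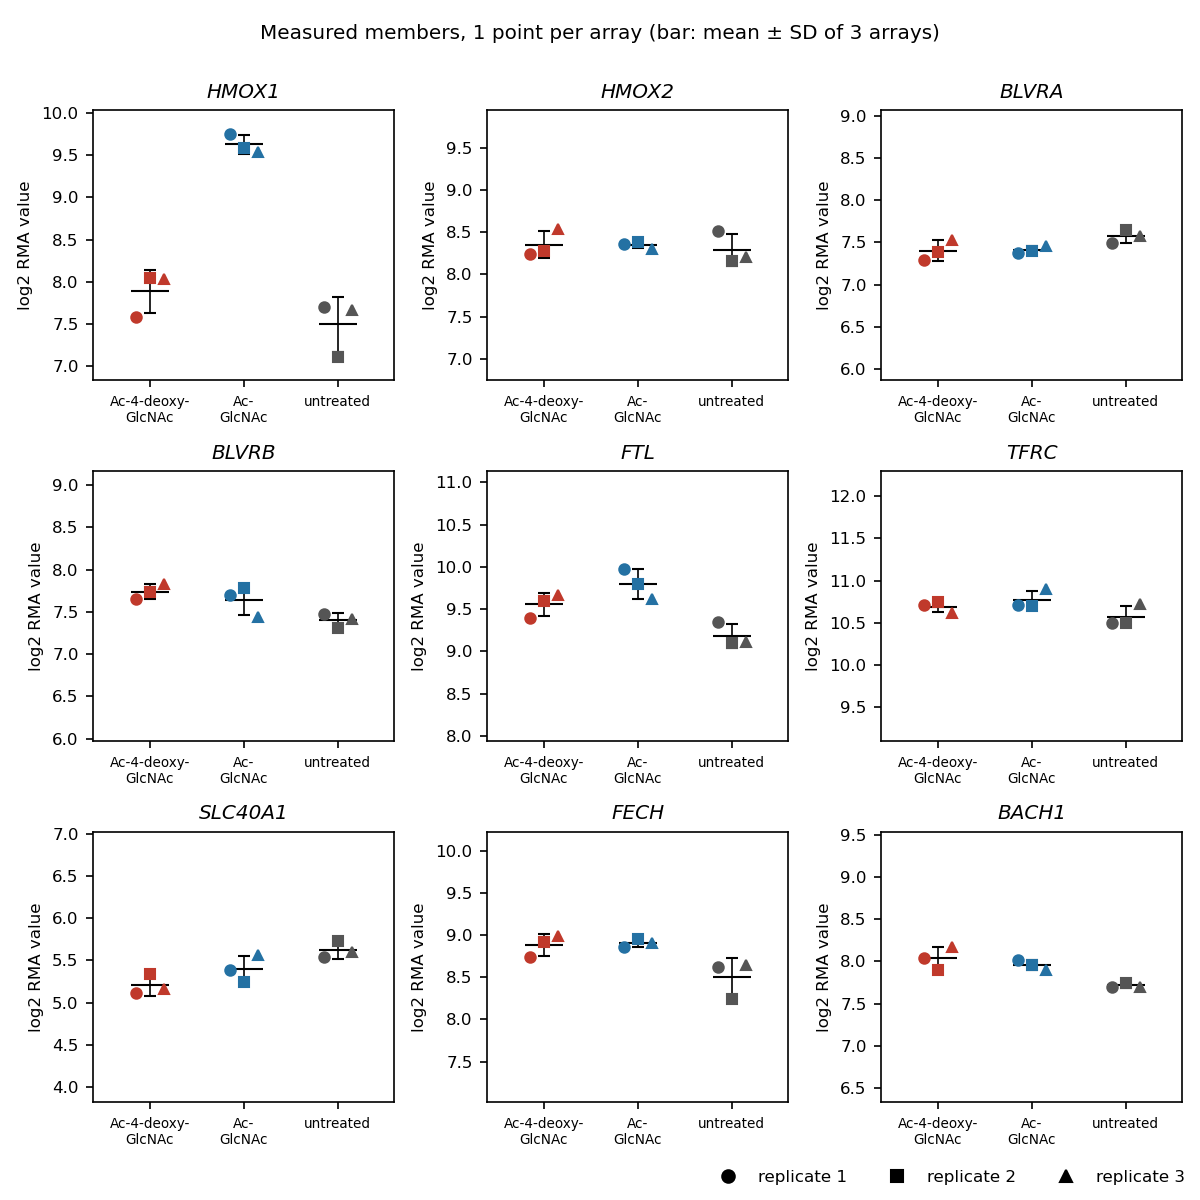
Log2 expression level on each of the 9 arrays for the 9 measured genes, 1 panel a gene, with Ac-4-deoxy-GlcNAc, Ac-GlcNAc and untreated arrays side by side; each point is 1 array and each bar the group mean ± SD, and all panels span the same number of log2 units. HMOX1 on the 3 Ac-GlcNAc arrays reached 9.54 to 9.75, while the other 6 arrays stayed between 7.11 and 8.04.

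HMOX2, the constitutive heme oxygenase, did not pass the test in any comparison. Its levels were 8.24, 8.28 and 8.54 with Ac-4-deoxy-GlcNAc, 8.36, 8.39 and 8.31 with Ac-GlcNAc, and 8.51, 8.15 and 8.20 in untreated cells, so all groups overlapped. The differences from untreated were 0.06 for each compound (adjusted p = 0.727 for Ac-4-deoxy-GlcNAc and 0.746 for Ac-GlcNAc, limma), and between the compounds 0.00 (interval -0.25 to 0.25).

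Neither biliverdin reductase passed the test in any comparison. BLVRA, the main reductase for the biliverdin made in adults, read 7.29, 7.39 and 7.53 with Ac-4-deoxy-GlcNAc, 7.38, 7.39 and 7.46 with Ac-GlcNAc, and 7.49, 7.65 and 7.58 in untreated cells. All Ac-GlcNAc arrays lay below the untreated ones, but by only 0.16 on average (log2 difference -0.16, adjusted p = 0.282). The Ac-4-deoxy-GlcNAc difference was -0.17 (adjusted p = 0.230).

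BLVRB, which reduces flavins as well as the fetal form of biliverdin, read 7.65, 7.73 and 7.83 with Ac-4-deoxy-GlcNAc, 7.70, 7.78 and 7.44 with Ac-GlcNAc, and 7.48, 7.30 and 7.42 in untreated cells. Its Ac-4-deoxy-GlcNAc arrays stood above all untreated ones by a mean of 0.34 (SE 0.11), which just missed the threshold (adjusted p = 0.0586). The Ac-GlcNAc arrays overlapped the untreated ones, with a difference of 0.24 (adjusted p = 0.181). Between the 2 compounds BLVRA differed by -0.01 (interval -0.21 to 0.20) and BLVRB by 0.10 (interval -0.13 to 0.33).

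FTL, the light chain of the iron store ferritin, was above untreated in both treated groups, more so with Ac-GlcNAc. It read 9.40, 9.60 and 9.66 with Ac-4-deoxy-GlcNAc, 9.97, 9.80 and 9.62 with Ac-GlcNAc, and 9.35, 9.10 and 9.10 in untreated cells. Both treated groups stood above every untreated array and overlapped each other. Ac-GlcNAc was 1.53-fold above untreated, a log2 difference of 0.61 (SE 0.12, interval 0.36 to 0.87), and between 0.53 and 0.70 with any 1 array left out. The difference of 0.37 for Ac-4-deoxy-GlcNAc against untreated missed the threshold (SE 0.12, adjusted p = 0.0576, limma), and that between the compounds was -0.24 (interval -0.50 to 0.01). Ferritin genes have processed pseudogenes, and how far they add to this probe set was not tested. The iron-responsive loop printed above acts on translation of the FTL messenger, which these arrays do not measure.

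TFRC, the transferrin receptor that brings iron in, did not pass the test. Its levels were 10.71, 10.74 and 10.62 with Ac-4-deoxy-GlcNAc, 10.71, 10.69 and 10.90 with Ac-GlcNAc, and 10.50, 10.50 and 10.72 in untreated cells, and all groups overlapped. The difference from untreated was 0.12 (interval -0.10 to 0.33) for Ac-4-deoxy-GlcNAc and 0.19 (interval -0.02 to 0.41) for Ac-GlcNAc, with adjusted p = 0.438 and 0.230. Between the compounds it was -0.08 (interval -0.29 to 0.14).

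SLC40A1, ferroportin, the only known exporter of iron from cells, fell with the 4-deoxy analog. It read 5.11, 5.34 and 5.16 with Ac-4-deoxy-GlcNAc, 5.39, 5.25 and 5.56 with Ac-GlcNAc, and 5.53, 5.73 and 5.60 in untreated cells. Every Ac-4-deoxy-GlcNAc array lay below every untreated one, and the Ac-GlcNAc arrays overlapped both groups. The log2 difference of Ac-4-deoxy-GlcNAc from untreated was -0.42 (SE 0.11, 1.34-fold, adjusted p = 0.0280), that of Ac-GlcNAc -0.22 (adjusted p = 0.207), and that between the compounds -0.20 (interval -0.43 to 0.04). Leaving out untreated replicate 2 (adjusted p = 0.0779) or 3 (0.0540), or the analog's replicate 1 (0.0831) or 3 (0.107), ended the call. It was also lost with quantile normalization (difference -0.33, 0.0530), cyclic loess (-0.32, 0.0561), the 6 compared arrays alone (0.0558) and untreated replicate 2 and the analog's replicate 1 both left out (0.151). SLC40A1 lies in level class 2 of 4, where the median probe set differed by -0.09 in this comparison and 6.99% were called lower.

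FECH, ferrochelatase, which puts iron into the porphyrin ring in the last step of heme synthesis, was above all untreated arrays in both treated groups without passing the test. It read 8.74, 8.92 and 8.99 with Ac-4-deoxy-GlcNAc, 8.86, 8.95 and 8.91 with Ac-GlcNAc, and 8.62, 8.25 and 8.65 in untreated cells. The lowest of these 9 values, 8.25, was untreated replicate 2. The difference was 0.38 (adjusted p = 0.0546) for Ac-4-deoxy-GlcNAc and 0.40 (adjusted p = 0.0927) for Ac-GlcNAc, and these became 0.25 and 0.27 without that array (adjusted p = 0.161 and 0.300). The analog's difference passed with cyclic loess (0.0384), quantile normalization (0.0446), median centring (0.0470), probe sets above the median level only (0.0275) and trend and robust options (0.0398), and without untreated replicate 1 (0.0398). That of Ac-GlcNAc passed with array weights (0.0442). Between the compounds it was -0.02 (interval -0.28 to 0.23).

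BACH1, the heme-binding repressor of HMOX1, rose with the 4-deoxy analog. It read 8.04, 7.90 and 8.16 with Ac-4-deoxy-GlcNAc, 8.01, 7.96 and 7.90 with Ac-GlcNAc, and 7.70, 7.75 and 7.70 in untreated cells. Both treated groups stood above every untreated array and overlapped each other. The difference from untreated was 0.32 (SE 0.10, 1.25-fold, adjusted p = 0.0453) for Ac-4-deoxy-GlcNAc and 0.24 (adjusted p = 0.140) for Ac-GlcNAc, and between the compounds 0.08 (interval -0.13 to 0.28). The call is a narrow one: of the 6 fits that each left out 1 Ac-4-deoxy-GlcNAc or untreated array, only that without Ac-4-deoxy-GlcNAc replicate 2 kept it, and the adjusted p ran from 0.0363 to 0.184. It was also lost with quantile normalization (0.0656), cyclic loess (0.0640), array weights (0.0546), the replicate block (0.0590), the 6 compared arrays alone (0.102), untreated replicate 2 and the analog's replicate 1 both left out (0.112), and any 1 Ac-GlcNAc array left out (0.0558 to 0.0740).

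**Figure D2:**
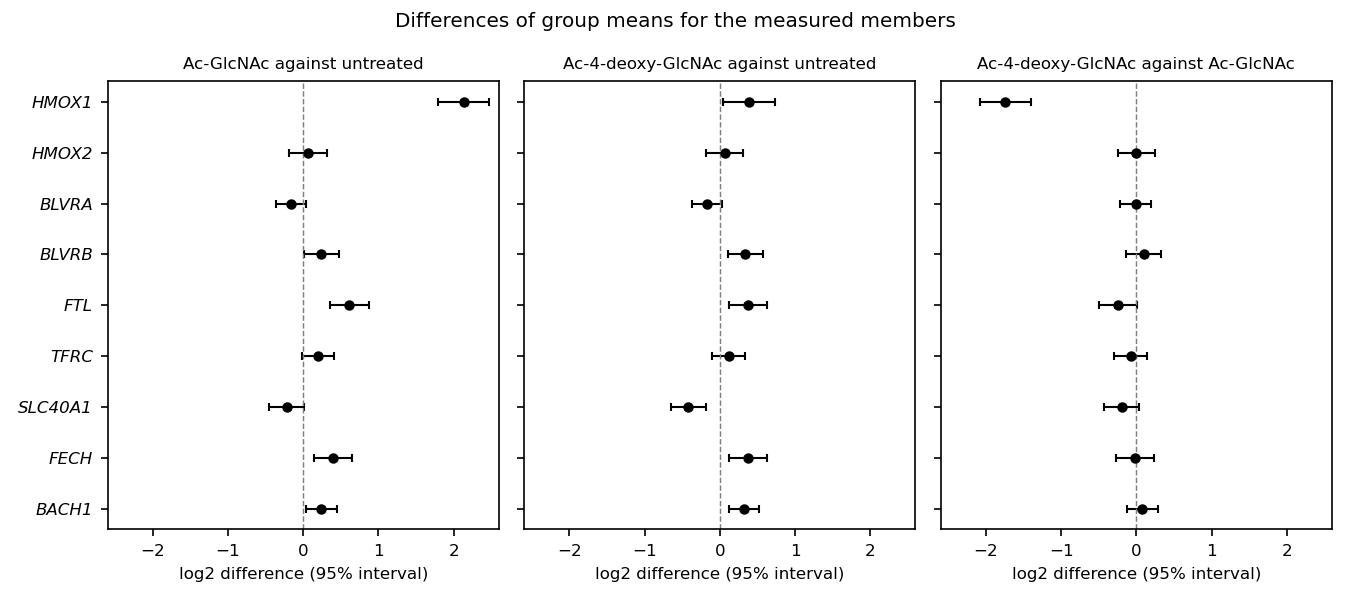
Log2 difference and 95% interval for each of the 9 measured genes in Ac-GlcNAc against untreated, Ac-4-deoxy-GlcNAc against untreated and Ac-4-deoxy-GlcNAc against Ac-GlcNAc; the dashed line marks 0. HMOX1 stood at 2.13, 0.39 and -1.74 in these comparisons, and the other 8 genes lay between -0.42 and 0.61.

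Counted over the 9 measured genes, Ac-GlcNAc against untreated gave 2 higher and 0 lower (limma; 0 lower also at an unadjusted p under 0.05), the 2 being HMOX1 and FTL. Over all probe sets 0.207% were called higher and 0.235% lower; since HMOX1 and FTL were chosen on this comparison, nothing is read from the count. The arrays of these groups did not overlap in 5 of 9 genes, against 32.3% of all probe sets. These 5 include HMOX1 and FTL, so nothing is read from that count. Ac-4-deoxy-GlcNAc against untreated gave 1 higher, BACH1, where 5.38% of all probe sets were called, and 1 lower, SLC40A1, where 5.64% were. Those arrays did not overlap in 5 of 9 genes, against 32.1% of all. These 5 were BLVRB, FTL, SLC40A1, FECH and BACH1. All 9 were chosen with earlier results of these data known, so nothing is read from that count. Ac-4-deoxy-GlcNAc against Ac-GlcNAc gave 0 higher (0 also at an unadjusted p under 0.05), where 0.896% of all were, and 1 lower, HMOX1, where 1.48% were; HMOX1 was chosen on its known values, and nothing is read from this count either. Of the 9 genes, 1 was without overlap there, again HMOX1, against 21.2% of all probe sets. The median differences of the 9 genes were 0.24, 0.32 and -0.02 in these 3 comparisons, beside -0.02, -0.05 and 0.00 over all probe sets. HMOX1 and FTL enter these medians, and all of the 9 but SLC40A1 lie in level classes 3 and 4. There the median probe set differed by 0.09 and 0.11, 0.04 and 0.06, and -0.04 and -0.05 in the same comparisons. Both compounds were compared with the same untreated arrays, so the first 2 comparisons are not independent of each other.

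Around these genes, 9 lists of heme and iron handling were read, chosen with earlier results of these data known. The calls in them are thus no independent test of the pathway. Of their 101 genes, 72 were measured. Ac-GlcNAc against untreated gave 2 higher and 0 lower among them (limma; 3 lower at an unadjusted p under 0.05), with a median difference of 0.07. Ac-4-deoxy-GlcNAc against untreated gave 6 higher and 4 lower, with a median of -0.01. Ac-4-deoxy-GlcNAc against Ac-GlcNAc gave 0 higher (3 at an unadjusted p under 0.05) and 5 lower, with a median of -0.03. Beside these counts out of 72 stand the shares of all probe sets called higher and lower. For Ac-GlcNAc beside untreated cells they were 0.207% and 0.235%, and for the analog beside untreated cells 5.38% and 5.64%. Between the compounds they were 0.896% and 1.48%. The median difference over all probe sets was -0.02, -0.05 and 0.00 in the same order. Of the 72 genes, 59 lie above the median level, in level classes 3 and 4. There the median probe set differed by 0.09 and 0.11, 0.04 and 0.06, and -0.04 and -0.05 in the same comparisons.

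Other known target genes of BACH1 and NRF2 gave the 2 rises with Ac-GlcNAc, out of 7 measured, where 0.207% of all probe sets were called higher. GCLM, the regulatory subunit of the enzyme that begins glutathione synthesis, read 8.18, 8.40 and 8.31 with Ac-4-deoxy-GlcNAc, 8.78, 8.76 and 8.95 with Ac-GlcNAc, and 8.21, 8.26 and 8.26 in untreated cells. As for HMOX1, all Ac-GlcNAc arrays stood above the other 6, and the analog overlapped the untreated cells. With Ac-GlcNAc, GCLM rose by 0.59 (SE 0.10, adjusted p = 0.0240) and the analog lay below Ac-GlcNAc by a log2 difference of -0.53 (adjusted p = 0.0116), while the analog's difference from untreated was 0.05 (interval -0.15 to 0.26). TXNRD1, cytosolic thioredoxin reductase, stood high with both compounds, at 9.63, 9.59 and 9.80 with Ac-4-deoxy-GlcNAc, 9.55, 9.55 and 9.48 with Ac-GlcNAc, and 9.04, 8.85 and 9.03 in untreated cells. It rose with both compounds, by 0.70 with Ac-4-deoxy-GlcNAc (SE 0.10, adjusted p = 0.00132) and by 0.56 with Ac-GlcNAc (adjusted p = 0.0336), and the compounds differed by 0.15 (interval -0.06 to 0.36). The 7 genes had a median difference of 0.39 for Ac-GlcNAc against untreated, 0.05 for Ac-4-deoxy-GlcNAc against untreated and -0.11 between the compounds. Over all probe sets the median was -0.02, -0.05 and 0.00. In level classes 3 and 4, which hold these 7 genes, it was 0.09 and 0.11 for Ac-GlcNAc against untreated. The rises of GCLM and TXNRD1 with Ac-GlcNAc were lost without any 1 of the 3 Ac-GlcNAc arrays or without untreated replicate 2 (adjusted p up to 0.114 and 0.141), while that of TXNRD1 with the analog held in all 6 such fits. With Ac-GlcNAc, GCLM also lost its call with cyclic loess (0.48, adjusted p = 0.0600) and quantile normalization (0.48, 0.0537). TXNRD1 kept its own there (0.0408 and 0.0469), but lost it with untreated replicate 2 and the analog's replicate 1 both left out (0.0550). The GCLM difference between the compounds lost its call when the analog's replicate 1 or Ac-GlcNAc replicate 3 was left out (adjusted p up to 0.0676).

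Of 6 measured genes of heme synthesis, 2 were lower with the analog than with Ac-GlcNAc. In that comparison 1.48% of all probe sets were called lower, and 2.69% of those in level class 3, which holds both genes. ALAS1, the first and rate-limiting enzyme of the pathway, read 7.84, 8.02 and 8.05 with Ac-4-deoxy-GlcNAc, 8.55, 8.40 and 8.58 with Ac-GlcNAc, and 8.24, 8.23 and 8.29 in untreated cells. The 3 groups did not overlap, with untreated cells in the middle. Only the contrast of the compounds passed, at -0.54 (SE 0.10, adjusted p = 0.0105); the differences from untreated were -0.28 for Ac-4-deoxy-GlcNAc (adjusted p = 0.0722) and 0.26 for Ac-GlcNAc (adjusted p = 0.128). UROS, uroporphyrinogen III synthase, read 7.91, 8.18 and 8.21 with Ac-4-deoxy-GlcNAc, 8.66, 8.59 and 8.48 with Ac-GlcNAc, and 8.63, 8.55 and 8.45 in untreated cells. It fell with Ac-4-deoxy-GlcNAc by 0.45 against untreated (adjusted p = 0.0198) and was lower than with Ac-GlcNAc as well (log2 difference -0.47, adjusted p = 0.0325). The other 4 measured genes of this list were not called in any comparison. The ALAS1 call ended when the analog's replicate 1 or either of Ac-GlcNAc replicates 1 and 3 was left out (adjusted p up to 0.0601). UROS lost the first call when the analog's replicate 1 was left out (0.0708), and kept the second in 1 of 6 fits, the one leaving out the analog's replicate 2.

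Among 10 measured genes of heme transport, SLC48A1, which carries heme out of endosomes and lysosomes into the cytosol, was the only one called. It read 9.85, 9.95 and 9.95 with Ac-4-deoxy-GlcNAc, 10.32, 10.32 and 10.24 with Ac-GlcNAc, and 9.97, 9.76 and 9.81 in untreated cells, again with the Ac-GlcNAc arrays above the other 6. The analog lay below Ac-GlcNAc (log2 difference -0.38, adjusted p = 0.0478), and its 0.45 for Ac-GlcNAc against untreated just missed (adjusted p = 0.0533). None of the 6 fits with 1 array of the compared groups left out kept the call (adjusted p 0.0836 to 0.211). ABCC3, a pump that exports bilirubin conjugates, was the only one called of 3 measured genes of electron supply and bilirubin disposal. The analog lay below Ac-GlcNAc by a log2 difference of -0.39 (adjusted p = 0.0421), which likewise was called in none of the 6 fits (adjusted p 0.0754 to 0.178). Both calls were made between the compounds, where 1.48% of all probe sets were called lower.

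Of 16 measured genes of iron uptake and export, 1 rose and 3 fell with Ac-4-deoxy-GlcNAc against untreated, where 5.38% of all probe sets were called higher and 5.64% lower. SLC11A2, the divalent metal transporter that moves ferrous iron out of endosomes, read 8.86, 8.80 and 8.92 with Ac-4-deoxy-GlcNAc, 8.58, 8.54 and 8.56 with Ac-GlcNAc, and 8.51, 8.28 and 8.37 in untreated cells. It rose by 0.48 (SE 0.09, adjusted p = 0.00748), held in all 6 fits with 1 array left out, and did not differ past the threshold between the compounds (0.30, interval 0.10 to 0.50, adjusted p = 0.116). TF, transferrin itself, fell by 0.41 (adjusted p = 0.0237), TFR2, the second transferrin receptor, by 0.38 (0.0468), and HFE, its partner in iron sensing, by 0.37 (0.0343). These 3 were dim, TF in level class 1 and TFR2 and HFE in level class 2, where the median probe set differed by -0.18 and -0.09 in this comparison. With cyclic loess and quantile normalization, TF differed by -0.20 and -0.22 (adjusted p = 0.0759 and 0.0631) and TFR2 by -0.26 and -0.27 (0.0610 and 0.0508), so both lost the call, while HFE differed by -0.33 in each and kept it (0.0374 and 0.0340). They kept the call in 3, 1 and 2 of 6 fits, and all 3 lost it when untreated replicate 2, or the analog's replicate 1 or 3, was left out (adjusted p up to 0.0971, 0.185 and 0.152).

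With the 4-deoxy analog against untreated, 1 of 4 measured genes in the iron regulatory list and 2 of 8 in the BACH1 and NRF2 list rose, beside 5.38% of all probe sets and 8.80% and 8.78% of those in level classes 3 and 4, which hold these 3 genes. SKP1, an adaptor of the ubiquitin ligases that remove iron regulatory proteins and BACH1, read 8.98, 8.69 and 8.74 with Ac-4-deoxy-GlcNAc, 8.38, 8.32 and 8.50 with Ac-GlcNAc, and 8.11, 8.21 and 8.39 in untreated cells. It rose by 0.57 (SE 0.11, adjusted p = 0.00749) and held in all 6 fits with 1 array left out. FBXO22, the F-box protein that directs such a ligase to BACH1, rose by 0.44 (adjusted p = 0.0239), and BTRC, an F-box protein that acts on NRF2, by 0.34 (0.0488). ISCA2, a mitochondrial iron-sulfur assembly factor, rose by 0.54 (0.0352), and was the only one called of 13 measured genes of that list. FBXO22, BTRC and ISCA2 kept the call in 3, 2 and 1 of 6 fits, and lost it without untreated replicate 2 among others (adjusted p up to 0.109, 0.185 and 0.158). With Ac-GlcNAc, none of these 4 was called: the differences from untreated were 0.16, 0.23, 0.29 and 0.31. Of the 5 measured genes of iron storage and iron chaperoning none was called in any comparison. NCOA4, the receptor that takes ferritin to lysosomes, differed between the compounds by -0.25 (adjusted p = 0.315), and GLRX3, an iron-sulfur chaperone of the cytosol, differed from untreated by 0.19 with Ac-4-deoxy-GlcNAc (adjusted p = 0.203).

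**Figure D3:**
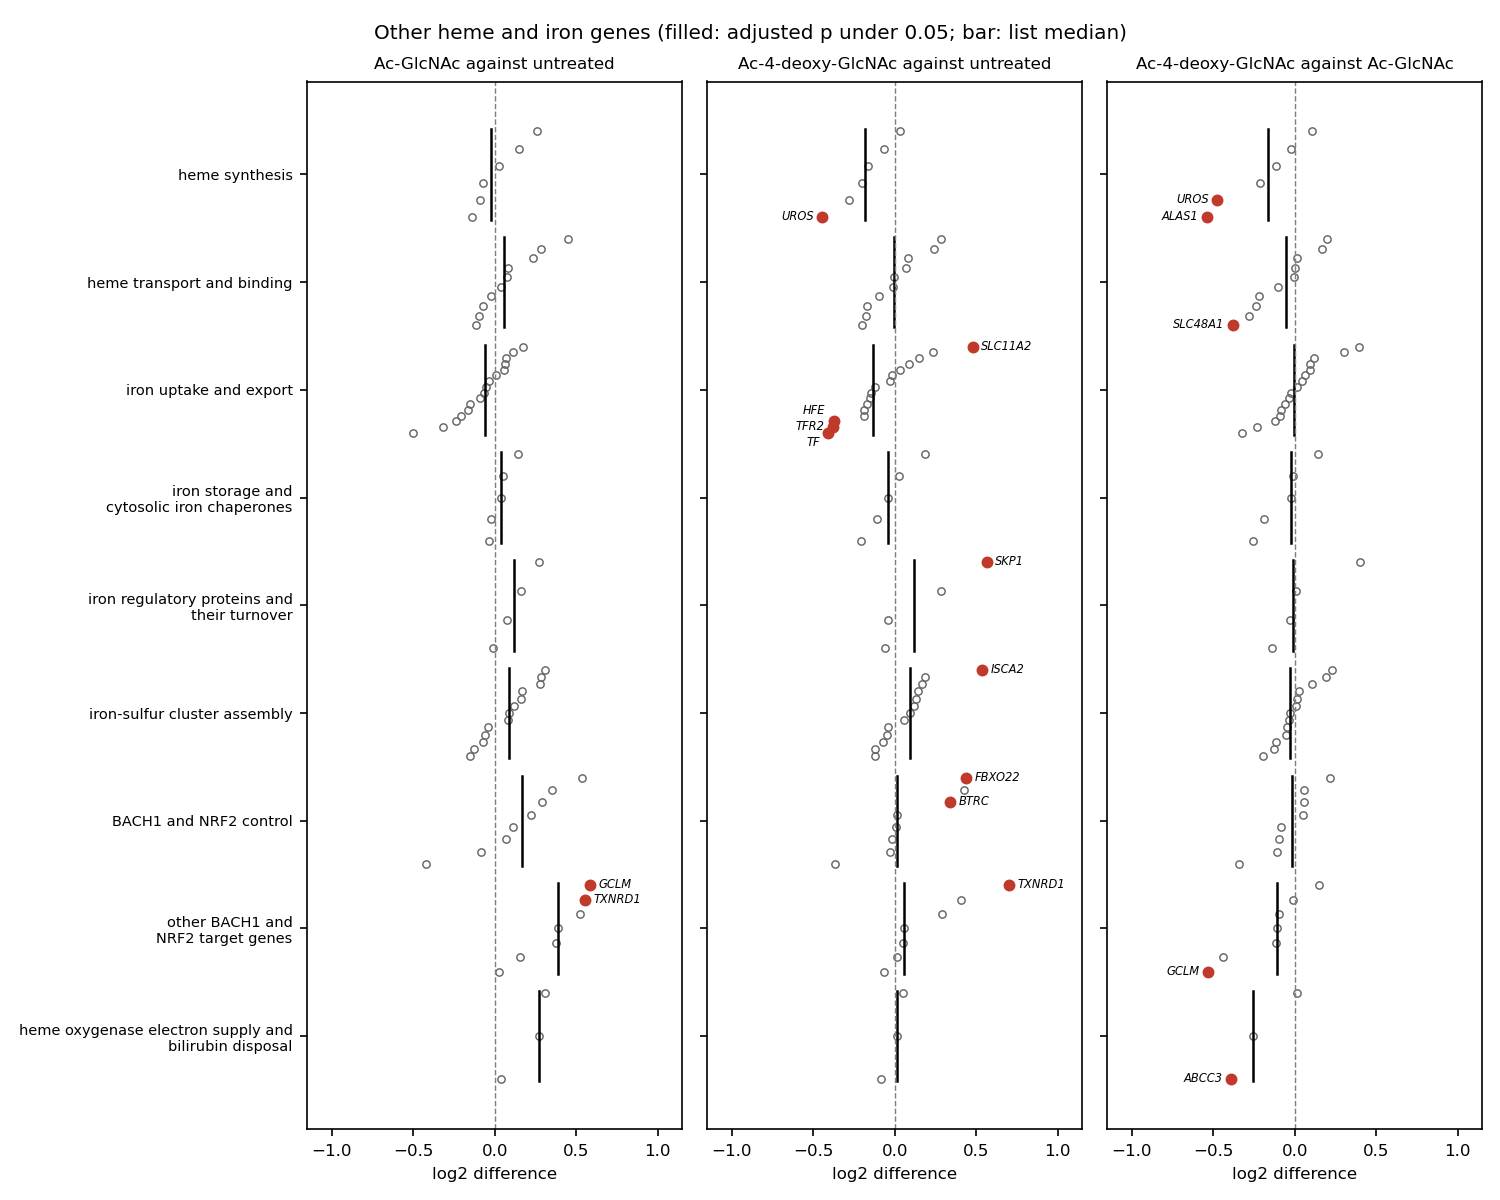
Log2 difference of each of the 72 measured genes in 9 lists of heme and iron handling, in Ac-GlcNAc against untreated, Ac-4-deoxy-GlcNAc against untreated and Ac-4-deoxy-GlcNAc against Ac-GlcNAc; each point is a gene, filled points have an adjusted p under 0.05, and the upright bars are list medians. With Ac-GlcNAc against untreated the 7 other BACH1 and NRF2 target genes had a median of 0.39, beside -0.02 over all probe sets. The filled points of the comparison between the compounds were all below 0.

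The genes whose levels ran most like HMOX1 over the 9 arrays were ranked by Pearson's r among 14214 other genes, as a description. The 5 highest were SLC48A1 (r = 0.98), TNFRSF11B (0.96), ABCC2 (0.95), POR (0.95) and GCLM (0.95). TNFRSF11B is the secreted decoy receptor osteoprotegerin, ABCC2 exports conjugated bilirubin and glutathione conjugates, and POR hands electrons to heme oxygenase. The 9 points share 3 groups, and a gene that is high on the Ac-GlcNAc arrays alone ranks high by that fact. Within groups, the r of deviations from the group means was 0.77 for SLC48A1, 0.74 for TNFRSF11B, 0.61 for ABCC2, 0.52 for POR and 0.19 for GCLM. The genes were picked for r over the same arrays, which holds these deviations, so these values are no separate sign of likeness. Untreated replicate 2 was the lowest untreated array for HMOX1, SLC48A1, TNFRSF11B and ABCC2, and its part in these values was not tested.

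ABCC2 read 6.23, 6.21 and 6.37 with Ac-4-deoxy-GlcNAc, 6.80, 6.84 and 6.62 with Ac-GlcNAc, and 5.99, 5.83 and 5.98 in untreated cells, so its 3 groups did not overlap and the analog lay between. POR read 8.32, 8.46 and 8.41 with Ac-4-deoxy-GlcNAc, 8.65, 8.62 and 8.69 with Ac-GlcNAc, and 8.34, 8.36 and 8.44 in untreated cells, and did not pass the test (0.27 for Ac-GlcNAc against untreated, adjusted p = 0.105). At the other end stood RIMS2 (r = -0.94), a scaffold protein of synaptic vesicle release, and ADAMTSL4 (-0.94), a secreted matrix protein. Among the other measured genes of the group, FTL had r = 0.85 and rank 130, FECH 0.66, TFRC 0.61, BLVRB 0.39, BACH1 0.38, HMOX2 0.28, SLC40A1 -0.19 and BLVRA -0.44.

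**Figure D4:**
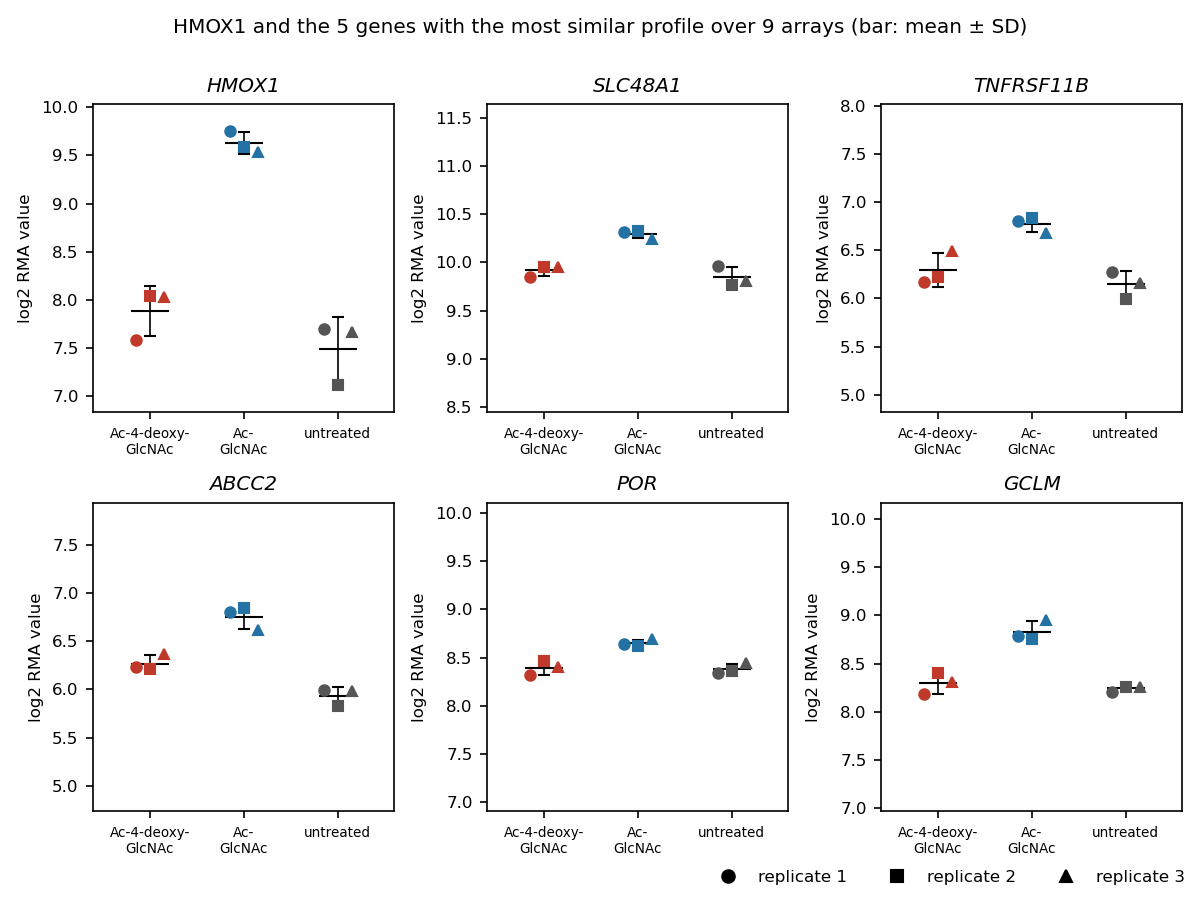
Log2 level on each of the 9 arrays for HMOX1 and the 5 genes with the highest Pearson r to it, as points by group with the mean ± SD, in the order Ac-4-deoxy-GlcNAc, Ac-GlcNAc and untreated. In all 6 genes the 3 Ac-GlcNAc arrays lie above the other 6, and ABCC2 with Ac-4-deoxy-GlcNAc, at 6.21 to 6.37, also lies above untreated, at 5.83 to 5.99.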

How the data were processed

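Total RNA of SKOV3 cells was measured on 9 arrays, 3 per group, each from its own flask, per the labels' protocols. The deposited log2 values, 1 per probe set and array, come from RMA, with Partek and hg18 also named, per the submitters' processing notes; versions are not given in the sources used here, and neither is a batch. All 17859 probe sets entered 1 limma 3.58.1 fit (R 4.3.3; lmFit and eBayes, group as the only term, 6 residual degrees of freedom). P-values were two-sided and adjusted by Benjamini-Hochberg over the whole table, and an adjusted p under 0.05 was called. Precision is set by the 3 arrays a group: a difference had a median standard error of 0.110.

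The 10 genes and the lists were chosen with earlier results of these data known. From each list, up to 4 called genes were named by size, or, in a list without calls, up to 2 by unadjusted p, and the 5 genes most and 2 least like HMOX1. Genes were named from probe sets annotated to 1 gene. The other settings were a replicate block, quantile normalization, cyclic loess, median centring, a filter on level, array weights, eBayes with trend and robust, fits of only the 6 arrays compared, and fits with arrays left out. The fit was tested on simulated data. Sequences are RefSeq's, on GRCh38.p14, which is not the authors' build.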

Additional observations from a re-analysis of the deposited data

How the results depend on the processing

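The HMOX1 differences kept their direction in all 18 other settings of each comparison. Of 393 tested values of the other 8 genes, 355 stayed on their side of the threshold, 22 lost a call (SLC40A1 and BACH1 with the analog against untreated) and 16 gained one (FECH, FTL and BLVRB with the analog against untreated, FECH and BACH1 in Ac-GlcNAc against untreated). FTL in Ac-GlcNAc against untreated, a description, would not pass in 12 of 18 settings. No called value changed sign, but 21 uncalled ones did, all of HMOX2, BLVRA, BLVRB or FECH in comparisons with a difference of 0.10 or less. For Ac-GlcNAc against untreated, the 2 calls among the 9 genes became 1 with cyclic loess, quantile normalization, median centring, the 6 compared arrays or a pair left out (untreated replicate 2 with the analog's replicate 1), and 4 with array weights. The 2 in the lists became 4 with the replicate block or above the median level, 1 with loess, quantile normalization or the pair left out, and 12 with array weights. For the 4-deoxy analog against untreated, the 2 calls became 1 with the replicate block, loess or quantile normalization, 4 with median centring, the level filter or trend and robust options, and 0 with the 6 arrays or the pair left out (limma; 6 at an unadjusted p under 0.05 in each). The 10 in the lists became 3 with the 6 arrays and 4 with the pair left out. For the analog against Ac-GlcNAc, the 5 in the lists became 3 with median centring or the pair left out and 10 with array weights.

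With each array left out in turn, calls among the 9 genes ran from 1 to 2, 0 to 4 and 1 to 1 in these 3 comparisons, and in the lists from 0 to 6, 3 to 12 and 0 to 6. Over all probe sets, the 79, 1968 and 425 calls ran from 4 to 1359, 604 to 3076 and 141 to 659, and in the other settings from 32 to 1760, 730 to 2265 and 358 to 1187. Without untreated replicate 1 the first 2 counts were 1359 and 3076, without Ac-GlcNAc replicate 3 the first was 4, and without the analog's replicate 3 the second was 604. The causes were not tested. Arrays with the same replicate number did not deviate together (r from -0.24 to 0.37 in 9 pairs, and from -0.40 to 0.41 in 18 pairs of different numbers). The block is therefore given only as another setting. No gene of the 9 had a second single-gene probe set to try, and SLC40A1 was below the level filter. Signal over background could not be assessed from these values.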
